A study of Hylyphantes graminicola with 5 samples.

Results

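The genes described here are the neighbours of sex-biased genes on 6 contigs of the *Hylyphantes graminicola* genome, a web-building spider. The contigs, numbered 333, 1523, 1263, 1084, 494 and 1339, were chosen by measured values, namely a gene on each whose level differed between female and male brains in these same libraries. The members are all listed genes of the 6 contigs except CTG-1084.3, CTG-1084.8 and CTG-1263.7, which gives 96 of 19195 genes, namely 44 on contig 333, 5 on contig 1523, 5 on contig 1263, 21 on contig 1084, 2 on contig 494 and 19 on contig 1339. Because the female against male values chose the contigs, every female against male value below is a description, given without a p. The gene identifiers end in a contig number and a gene number (CTG-333.35 stands for evm.TU.CTG-333.35), and the gene number was taken as the order along the contig.

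Brains of mixed-aged adults, collected as wild spiders and with no treatment named, were dissociated and sequenced with a 10x 3′ kit, in 3 female and 2 male libraries of 35 to 40 pooled brains each. Sex is the only difference between the groups that the labels give. Each library came from its own pool and the study calls them biological replicates, but pooling hides the spread between animals, and the p-values below cover only the spread between these libraries. Of 40233 barcodes, 31145 passed the limits on depth and mitochondrial share. The kept cells of a library held 11353727 to 34543696 UMIs (unique molecular identifiers, each counting 1 captured mRNA molecule), of which 14.2% to 26.4% were mitochondrial. Any 2 libraries shared between 5 and 15 cell barcodes.

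A contig is a stretch of genome assembled without gaps, and the genes on it are physical neighbours. Most spiders have several X chromosomes, of which males carry fewer copies than females, and a contig from an X chromosome carries many genes at once. The contigs were not assigned to chromosomes here, and gene positions, strands and sequences were not used. Adjacent gene models may also be parts of 1 gene, and a 3′ kit counts mostly the end of a transcript, which bears on any run of neighbours below.

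Of the 96 members, 81 had enough UMIs to be fitted, while 15 did not. The latter held at most 44 UMIs over the 5 libraries, and CTG-333.7, CTG-1339.23 and CTG-1339.24 held 0. Names were found for 18 members in the annotation used here, 17 of them fitted, and most lie on contig 1084. The mean level of the fitted members ran from 0.336 to 2890 CPM (UMIs scaled to 1000000 per library), with a median of 12.8 against 10.9 for all genes fitted. Levels are sums over the cells of a library, so that a level alone cannot tell fewer expressing cells from less RNA per cell.

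As a description of the longer contigs, the large sex differences sat in single genes or short runs. Of the other fitted members, 26 of 32 on contig 333, 13 of 17 on contig 1084 and 6 of 12 on contig 1339 differed by less than 0.5 on the log2 scale. With at least 1 on the log2 scale between the sexes and no overlap of their libraries as the limit, 11 of the 81 members qualified, 7 higher in females and 4 higher in males. Over all 13875 genes fitted the same limit was passed by 2.77%, so that genes past it were scarce elsewhere too. The edgeR fit, used here only to fix which genes are named, marked 2 members, CTG-333.35 and CTG-1523.1, besides the left-out CTG-1263.7, and 0.0216% of all genes. The number of members marked was 0 without female replicate 2, 1 without female replicate 1 or either male library, and 7 with DESeq2. The contigs were picked on this contrast, so nothing is read from these counts. Among the remaining 70 members, 53 differed by less than 0.5, a count for which no share over all genes is given. At any size of difference, the libraries of the sexes did not overlap for 19 of the 81 members (23.5%), against 11.7% of all genes fitted. Of the 81 members, 7 were past the limit of 1 without overlap and lay next to another fitted gene past it in the same direction. The same held for 0.303% of all genes fitted on contigs. The choice of the contigs sets these shares of the members as well.

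**Figure D1:**
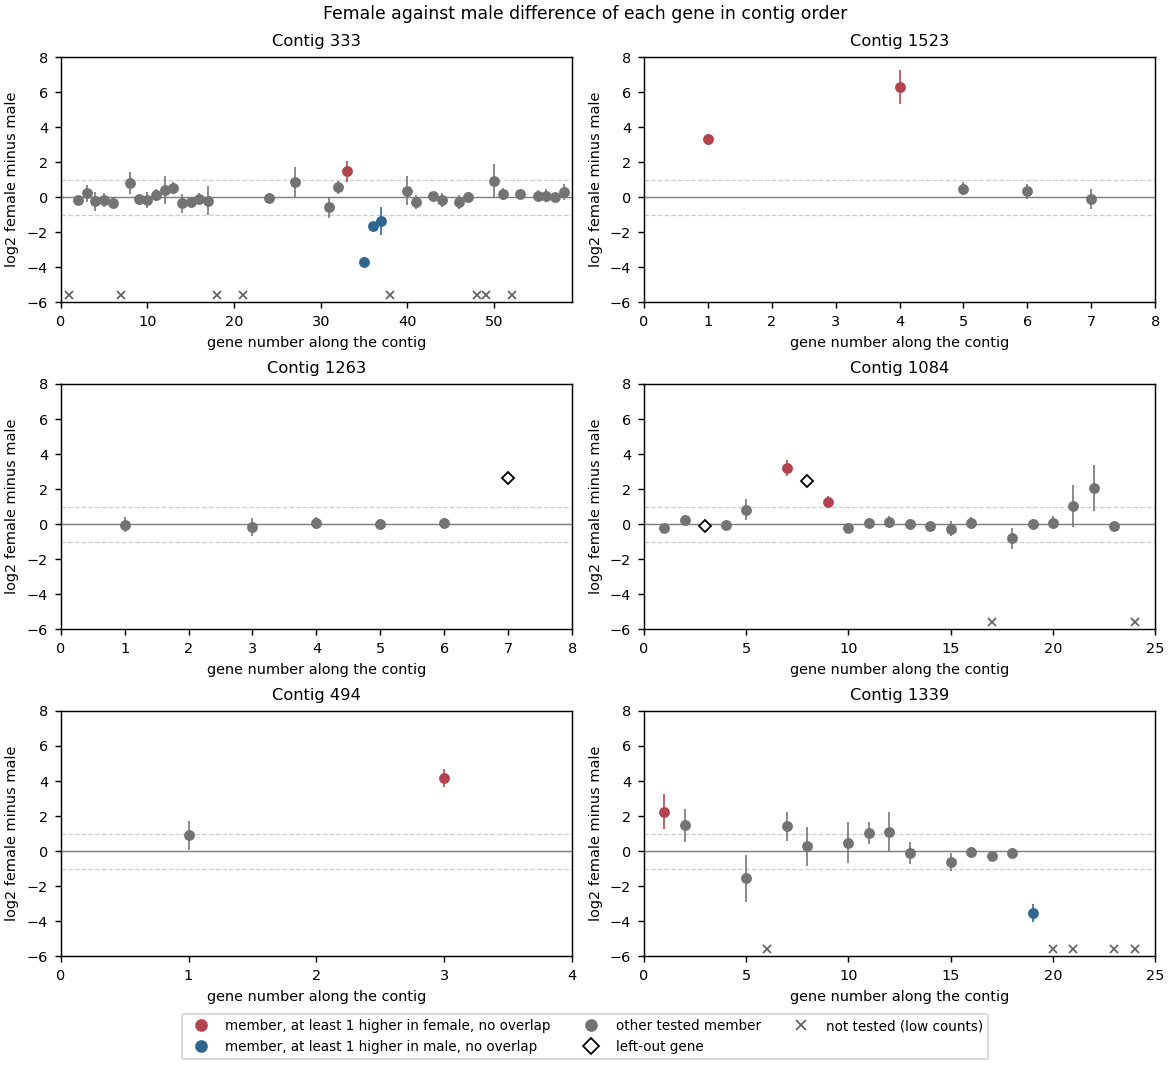
The log2 female minus male difference with its standard error (vertical axis) is plotted against gene number (horizontal axis) for each of the 6 contigs. Coloured points are the 11 members past a difference of 1 (dashed lines) without overlap of libraries, diamonds are the 3 left-out genes, crosses are members with too few UMIs, and most other points lie near 0.

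On contig 333 the difference was a male one and covered 3 consecutive genes. CTG-333.35 had 8.26, 9.53 and 9.86 CPM in the females and 129 and 107 in the males, with libraries here and below in the order of their replicate numbers. Both male libraries lay far above all female ones, and the means were 9.21 ± 0.845 (SD, n = 3) and 118 ± 15.5 (SD, n = 2), a log2 female minus male difference of -3.68 ± 0.25 (SE). UMIs of it were found in 106 of 3296, 95 of 4767 and 340 of 7696 female cells, at 1.02 to 1.07 UMIs per such cell. In males they were found in 2253 of 7247 and 1856 of 8139 cells, at 1.82 and 1.53. The next gene, CTG-333.36, had 51.1, 55.4 and 41.3 CPM in females and 170 and 140 in males. Here, too, the groups did not overlap, at a log2 difference of -1.66 ± 0.25 (SE), although the females kept a clear level. CTG-333.37 followed in the same direction at levels near the detection limit, with 0.0765, 0.381 and 0.486 CPM in females and 1.16 and 0.528 in males, from 23 female and 51 male UMIs in all. Its log2 difference was -1.34 ± 0.79 (SE) and -0.67 without male replicate 1.

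The gene on the other side pointed the opposite way. The model that merges CTG-333.34 with CTG-333.33 had 4.21, 5.52 and 2.51 CPM in females and 0.784 and 2.11 in males, a log2 difference of 1.48 ± 0.60 (SE). This was 0.93 without male replicate 1, under the limit, and 2.34 without male replicate 2. Its lowest female library was close to its higher male library. The remaining 32 fitted genes of contig 333 lay between -0.57 and 0.93, with 26 of them within 0.5, and the contig median was -0.02. The nearest fitted genes outside this stretch, CTG-333.32 at 0.56 and CTG-333.40 at 0.37, had overlapping libraries. The annotation held gave no name to any of these genes. CTG-333.51, which shares an orthogroup with the fly gene crok, a small membrane-anchored protein known in *Drosophila* for its part in septate junctions, stood at 0.18 ± 0.34 (SE).

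On contig 1523 the females were higher, in the first 2 genes listed. CTG-1523.1 had 118, 86.3 and 105 CPM in females and 8.98 and 12 in males. The groups were far apart, with means of 103 ± 16.0 (SD, n = 3) and 10.5 ± 2.14 (SD, n = 2) and a log2 difference of 3.30 ± 0.30 (SE). CTG-1523.4, the next gene listed, had 2.91, 1.71 and 4.46 CPM in females and 0.0628 and 0 in males. This amounts to 221 UMIs in females and 2 in males, a ratio of 106 with an exact 95% interval of 29.1 to 885 that covers counting error only. The other 3 genes of the contig had overlapping libraries, at 0.50 for CTG-1523.5, 0.34 for CTG-1523.6 and -0.09 for CTG-1523.7. CTG-1523.5 is annotated as kek3, of the kekkon family of leucine-rich repeat membrane proteins.

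Contig 1263 held no member past the limit, although it was chosen for a gene with one. The left-out CTG-1263.7, annotated as the second of a pair of ENOX2 (ecto-NOX disulfide-thiol exchanger) genes, had 836, 766 and 870 CPM in females and 142 and 118 in males. Its neighbour CTG-1263.6, annotated as the first ENOX2 gene, had 181, 109 and 143 in females and 128 and 149 in males, with overlapping libraries and a log2 difference of 0.06 ± 0.29 (SE). The 2 genes carry the same gene name, and how reads that fit both were counted is not given in the sources used here, so that their separate levels are uncertain. All 5 members of the contig lay between -0.17 and 0.09. Among them was CTG-1263.4 (EMC4, a subunit of the complex that inserts membrane proteins into the endoplasmic reticulum), at 0.09.

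Contig 1084 is the best annotated of the 6 and held a run of 3 genes higher in females, the middle one being left out of the members. CTG-1084.7, without a name, had 204, 216 and 108 CPM in females and 12.2 and 26.3 in males. The lowest female library, replicate 3, lay far above both male ones, and the log2 difference was 3.19 ± 0.46 (SE), or 3.84 without male replicate 2. The left-out CTG-1084.8, annotated as RBM10, an RNA-binding splicing factor in vertebrates, followed with 165, 112 and 153 in females and 28.1 and 23.5 in males.

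CTG-1084.9, annotated as a synaptotagmin, a family of membrane proteins of which several act as calcium sensors in vesicle release, had 72.1, 37.0 and 43.7 CPM in females and 20.8 and 21.2 in males. Its libraries did not overlap and its log2 difference was 1.28 ± 0.33 (SE), or 0.94 without female replicate 1. CTG-1084.8 and CTG-1084.9 were placed in the same orthogroup by the annotation in spite of their different names, so that they may be parts of 1 gene model or share reads, which was not tested.

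The run ended sharply on one side. CTG-1084.10, a DIS3-like exonuclease of RNA decay, had 8.79, 11.2 and 10.2 CPM in females and 11.4 and 12.2 in males, at -0.22 ± 0.30 (SE). On the other side came CTG-1084.5, an uncharacterized gene and the most abundant member, with 1325, 5761 and 3404 in females and 2611 and 1326 in males. Its level varied more among the females than between the sexes, which overlapped. CTG-1084.2 (Ercc1, of DNA excision repair) at 0.23 and CTG-1084.4 (an Hsp70-type chaperone) at -0.02, the members on either side of the left-out short neuropeptide F gene, were close to 0.

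The annotated genes for RNA handling and translation lay between -0.22 and 0.11. None of the 6 qualified, namely eIF1 (choice of the start codon), Larp4B (an RNA-binding protein), Rpp20 (a subunit of RNase P), RpS6 (a protein of the small ribosomal subunit), RpL24-like and the DIS3-like gene, and their median was 0.03 against 0.02 for all genes fitted. RpS6 had 316, 637 and 703 CPM in females and 607 and 437 in males. Among 4 annotated genes of neuronal function only the synaptotagmin qualified, while nwk, an adaptor of synapse growth in *Drosophila*, stood at -0.12, kek3 at 0.50 and Rac1, a small GTPase of the actin cytoskeleton, at -0.27, with a list median of 0.19. None of 7 further annotated genes qualified, with a median of 0.07. CTG-1084.22 had a large difference of 2.06 ± 1.32 (SE) with no separation, at 7.34, 10.8 and 0.297 in females and 2.70 and 0.151 in males. These levels came from few cells, 4, 3 and 4 in the females and 5 and 4 in the males, with 113 UMIs in the 3 cells of female replicate 2.

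Contig 494 has only 2 listed members. CTG-494.3 had 9.10, 11.1 and 6.27 CPM in females and 0.596 and 0.377 in males, from 467 and 29 UMIs. The groups were far apart at a log2 difference of 4.15 ± 0.52 (SE). CTG-494.1, at 0.90 ± 0.83 (SE), had overlapping libraries between 0.381 and 3.16 CPM.

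The last fitted gene of contig 1339 was male-higher, after 3 flat ones. CTG-1339.19 had 0.918, 0.667 and 1.30 CPM in females and 16.4 and 6.94 in males, a log2 difference of -3.55 ± 0.51 (SE), or -2.81 without male replicate 1. The male libraries differed from each other, replicate 1 being the higher, and both lay above every female one. The 3 genes before it were even, at -0.05 for CTG-1339.16, -0.25 for CTG-1339.17 and -0.11 for CTG-1339.18, and the members after it had too few UMIs. Early genes of the contig were uneven between libraries. CTG-1339.1 had 0.765, 3.05 and 1.27 CPM in females and 0.0628 and 0.641 in males, and CTG-1339.12 had 1.53, 45.3 and 139 in females and 35.2 and 23.5 in males. CTG-1339.1 qualified, with its higher male library close to its lowest female one and a log2 difference of 2.25 ± 0.99 (SE) that was 1.37 without male replicate 1 and 4.6 without male replicate 2, and CTG-1339.12 did not. Female replicate 3, the highest in CTG-1339.12, also had a summed level of 4 fat body genes of 709 CPM against 179 to 214 in the other libraries, most of it from 1 gene at 500 CPM against 38.8 to 75.8 elsewhere. None of the 4 genes was at 0, and their part in the result was not tested. Of the members named in these paragraphs, CTG-333.32, CTG-333.37, CTG-333.40, CTG-1523.6, CTG-1523.7, CTG-1084.5, CTG-1084.22, CTG-494.3 and CTG-1339.16 to CTG-1339.19 were picked after their values were seen.

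**Figure D2:**
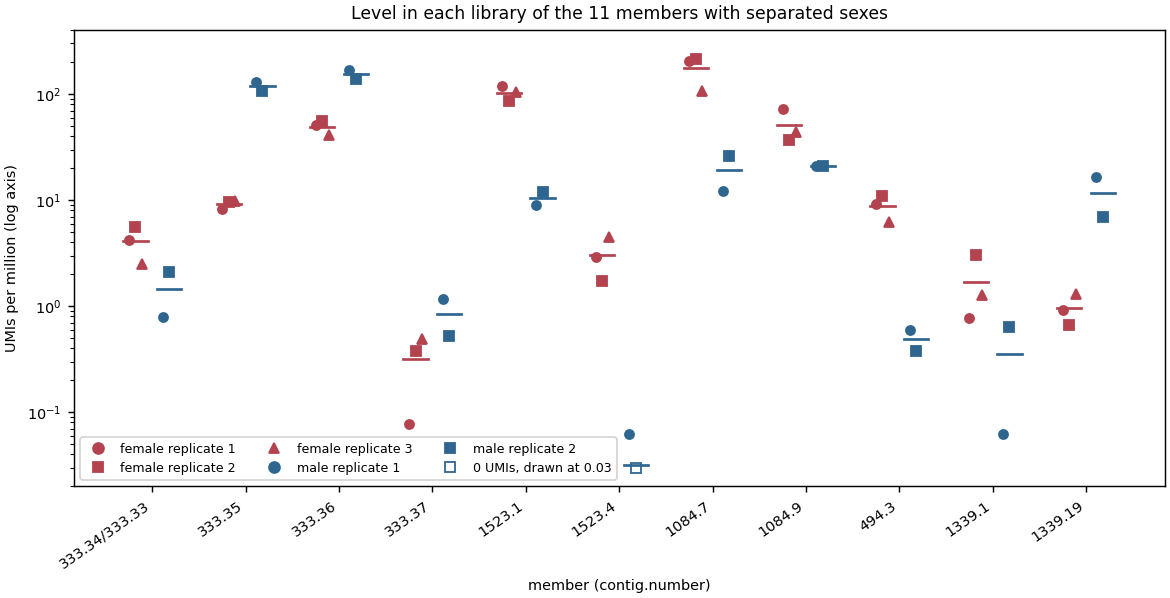
CPM (log axis) in each library of the 11 members with separated sexes, in contig order, with bars at the mean of each sex. The 2 male libraries of CTG-333.35 (129 and 107) lie above the 3 female ones, and the 3 female libraries of CTG-1523.1 (86.3 to 118) lie above the male ones.

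The median log2 difference of the members was -0.02 for contig 333, 0.50 for contig 1523, 0.02 for contig 1263, 0.07 for contig 1084 and 0.11 for contig 1339, while the median of all genes was 0.02. Contig 494, with 2 genes, stood at 2.52. Over the 839 contigs with at least 5 fitted genes, the medians ran from -0.87 to 1.22, and the central part from percentile 5 to percentile 95 ran from -0.16 to 0.26.

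The same genes were then followed in 3 classes of cells, gated on marker UMIs, to give the sex difference in each. Neuron-like cells carried at least 5 UMIs of elav and Syt1 together, numbered 2602 to 6227 per library, and had a brp level of 145 and an nSyb level of 148 CPM (medians of 5 libraries). Glia-like cells, with at least 3 UMIs of Gat and Eaat2 together, numbered 64 to 70 per library and carried moody, a glial receptor of the fly blood-brain barrier, at 412 against 1.56 in neuron-like cells. The third class, 22 to 278 cells per library, carried at least 2 UMIs over 3 Hml (hemolectin) genes. Its 2 check genes, both annotated NATT4, were at only 2.58 and 3.20, below the 12.3 and 12.2 of all kept cells. This class is therefore called Hml-gated and not hemocyte. Brp remained at 82.1 in Hml-gated and 98.5 in glia-like cells, and nSyb at 75.5 and 60.2, so that neuronal RNA was present in both. Doublets were not removed beyond the gates.

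For 4 members with many UMIs over all cells, the direction in each class was the one seen in all cells. CTG-333.35 averaged 9.98 ± 1.04 (SD, n = 3) CPM in female and 121 ± 17 (SD, n = 2) in male neuron-like cells, 3.93 ± 4.34 and 98.8 ± 41.2 in Hml-gated cells, and 6.13 ± 5.37 and 159 ± 32.1 in glia-like cells. CTG-1523.1 averaged 113 ± 35.4 in female and 10.7 ± 2.44 in male neuron-like cells, 62.1 ± 20.3 and 11.3 ± 14.2 in Hml-gated cells, and 38.3 ± 21.8 and 6.01 ± 8.50 in glia-like cells. The libraries of the sexes did not overlap in any class for CTG-333.35, CTG-333.36, CTG-1523.1 and CTG-1084.7. In glia-like cells this rested on few UMIs, for CTG-1523.1 6, 4 and 18 in females and 0 and 3 in males. There CTG-1084.7 had 2 and 3 UMIs in males, CTG-333.35 0, 2 and 3 in females, and CTG-333.36 1, 6 and 5 in females. CTG-1084.9, also with many UMIs over all cells, had separated libraries in neuron-like cells. In Hml-gated cells its libraries overlapped, with 0, 12.8 and 23.9 CPM in females and 8.53 and 10.3 in males. In glia-like cells CTG-1084.9 had only 6, 5 and 7 UMIs in females and 3 and 5 in males. Its levels there did not overlap, but female replicate 2 and male replicate 2 had 5 UMIs each, so no separation is read from that class. Part of the level in the scarcer classes may be free RNA from neurons, which was not tested. Outside the neuron-like cells, CTG-494.3 had 15 and 2 UMIs in females and 0 in males, in Hml-gated and glia-like cells, respectively, and all 15 were from female replicate 3.

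**Figure D3:**
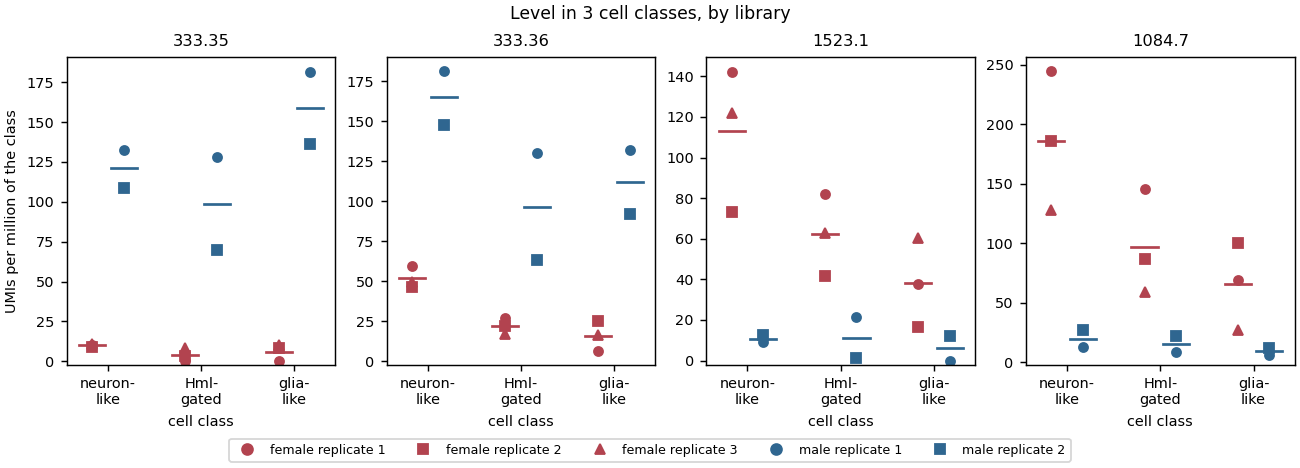
Class levels in CPM (vertical axes, from 0) in neuron-like, Hml-gated and glia-like cells for CTG-333.35, CTG-333.36, CTG-1523.1 and CTG-1084.7, with 1 point per library and bars at the mean of each sex. CTG-333.35 and CTG-333.36 are higher in males and CTG-1523.1 and CTG-1084.7 higher in females in all 3 classes.

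The difference between cell classes played no part in the choice of the contigs and was tested across all genes with edgeR's quasi-likelihood test, with the library as a block and Benjamini-Hochberg adjustment. Between neuron-like and Hml-gated cells, 19 of 62 members fitted (30.6%) passed, against 14.2% of all genes. Of these, 6 were higher in neuron-like cells (background 4.0%) and 13 lower (background 10.2%). Between neuron-like and glia-like cells, 11 of 60 (18.3%) passed against 13.2% of all genes, 5 higher (background 5.37%) and 6 lower (background 7.83%), a share near the background. Without female replicate 3 the members called numbered 12 and 6 in the 2 comparisons.

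The direction of calls over all genes depended on the scaling. TMM scaling moved the median of all genes by -0.41 against Hml-gated and by -0.28 against glia-like cells relative to plain library totals, an alternative chosen after the data were seen. With plain totals 15 members were higher and 11 lower than in Hml-gated cells, and 10 higher and 3 lower than in glia-like cells. The share of all called genes that were higher in neuron-like cells went from 28.2% to 80.5% against Hml-gated cells, and from 40.7% to 73.3% against glia-like cells. Every member called with TMM had the same sign with plain totals, 19 of 19 and 11 of 11.

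The largest differences among the members called against Hml-gated cells were on contig 1339, in 2 genes that were scarce or absent in neuron-like and glia-like cells. CTG-1339.1 had 28.5, 48.8 and 16.1 CPM in Hml-gated cells of the females and 4.12 and 15.9 in those of the males, against 0 to 0.460 in neuron-like cells. It was higher in Hml-gated cells in 5 of 5 libraries, at a ratio of 178 (exact 95% interval 89.2 to 395, counting error only) and an edgeR adjusted p of 9.41e-12. Of its 89 female and 19 male UMIs over all cells, 38 and 11 lay in Hml-gated cells. CTG-1339.7 was alike, with 22.7 to 85.9 in Hml-gated cells and 0 to 1.05 in neuron-like cells, a log2 neuron minus Hml-gated difference of -6.86 ± 0.39 (SE), edgeR adjusted p = 8.44e-14. Over all kept cells CTG-1339.7 had 13, 54 and 402 UMIs in the females and 40 and 81 in the males. Of these, 186 lay in Hml-gated and 53 in neuron-like cells, and the rest in cells of no gate. Neither CTG-1339.1 nor CTG-1339.7 had any UMI in glia-like cells, where 3 UMIs over the 5 libraries amount to 2.62 CPM.

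The number of Hml-gated cells differed between libraries, with 22, 104 and 278 in the females and 92 and 225 in the males, and its part in the levels over all cells was not tested. The summed level of all 5 genes, the Hml genes of the gate and the NATT4 check genes, ran over all kept cells from 40.2 to 109 in females. In males it ran from 53.5 to 94.9, with none of the genes at 0. As the check genes were not raised in Hml-gated cells, the sum does not follow that class alone. CTG-1339.11 stood at -2.50 between neuron-like and Hml-gated cells (edgeR adjusted p = 0.00168), and lost the call without female replicate 3. CTG-1339.12 had 118 CPM in the Hml-gated and 396 in the glia-like cells of female replicate 3, and at most 8.88 in any other library of either class. Of its 5154 UMIs in the kept cells of female replicate 3, 726 lay in neuron-like, 176 in Hml-gated and 93 in glia-like cells. Its calls, at -1.59 and -2.28 (edgeR adjusted p = 0.00177 and 0.0082), rested on that library. It was lower in neuron-like cells in 3 of 5 libraries against Hml-gated cells and in 1 of 5 against glia-like cells. Without female replicate 3 it stood at -0.31 against Hml-gated cells, and the difference from glia-like cells turned to 1.03.

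On contig 494, CTG-494.1 also had a higher level in Hml-gated cells, with 19, 0 and 14.1 CPM in females and 2.06 and 15.9 in males. These levels came from only 2, 0 and 21 UMIs in females and 1 and 9 in males. The level in neuron-like cells was 0.345 to 1.95 CPM. The log2 neuron minus Hml-gated difference was -3.42 ± 0.55 (SE), edgeR adjusted p = 2.61e-05. More of its UMIs lay in neuron-like cells, 106 against 33 in Hml-gated cells, so the gene was not confined to the latter. Its level was higher in Hml-gated cells in 4 of 5 libraries, and the exception had 0 UMIs in those cells.

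Contig 333 held genes higher in glia-like or in Hml-gated cells. CTG-333.13 had 472, 143 and 183 CPM in glia-like cells of the females and 75.3 and 83.4 in those of the males, against 7.17 to 12.3 in neuron-like cells. It was higher in glia-like cells in 5 of 5 libraries, with a log2 neuron minus glia-like difference of -4.16 ± 0.25 (SE) (edgeR adjusted p = 3.73e-13). CTG-333.31, far scarcer over all cells, was 14.3 to 38.4 in glia-like and 0.277 to 0.999 in neuron-like cells (log2 difference -5.25 ± 0.54, SE, edgeR adjusted p = 2.32e-08). CTG-333.56 had 351 to 928 in Hml-gated and 96.2 to 203 in neuron-like cells, a difference of -2.0 ± 0.16 (SE), edgeR adjusted p = 1.19e-10. CTG-333.8 was lower in neuron-like than in Hml-gated cells as well (-1.81 ± 0.20, SE, edgeR adjusted p = 7.29e-08). The summed level of the 3 glia genes was 208, 217 and 55.0 in the female and 51.9 and 76.9 in the male libraries, while CTG-333.13 over all cells had 18.8, 12.3 and 12.6 in females and 10.5 and 9.73 in males. The part of the glia in that order was not tested. CTG-333.8, CTG-333.56 and CTG-1339.11 were picked after their values were seen.

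Of the 6 genes for RNA handling and translation, 3 were called lower in neuron-like than in Hml-gated cells (background 10.2%) and 0 higher (background 4.0%). The list median was -0.69 against 0.09 for all genes. The gene lists were drawn up with earlier results of these data known, so the counts are a description. RpS6 had 475, 1620 and 1350 CPM in Hml-gated cells of the females and 1190 and 1240 in those of the males, against 264 to 503 in neuron-like cells. It was lower in the neuron-like cells of 5 of 5 libraries, at -1.44 ± 0.17 (SE), edgeR adjusted p = 1.49e-07. RpL24-like followed at -1.38 ± 0.17 (SE), edgeR adjusted p = 4.96e-07, and eIF1 at -1.09 ± 0.17 (SE), edgeR adjusted p = 1.22e-05. Against glia-like cells RpS6 and eIF1 both stood at -0.59 (edgeR adjusted p = 0.0235 and 0.029), and both calls were lost with plain library totals and without female replicate 3. That of eIF1 was also lost without either male library.

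Of the 4 neuronal genes, 3 were called higher in neuron-like than in Hml-gated cells (background 4.0%) and 0 lower (background 10.2%), with a list median of 0.76. Kek3 had 41.0 to 98.3 CPM in neuron-like and 7.07 to 59.7 in Hml-gated cells, higher in the former in 5 of 5 libraries by 0.92 ± 0.22 (SE), edgeR adjusted p = 0.00385. The synaptotagmin of CTG-1084.9 was 0.89 ± 0.26 (SE) higher, edgeR adjusted p = 0.0214, and lost the call without female replicate 2, while nwk was 0.63 ± 0.16 (SE) higher, edgeR adjusted p = 0.00498. Nwk was higher than in glia-like cells too (0.59 ± 0.18, SE, edgeR adjusted p = 0.0242), a call lost without female replicate 2 or 3. Against glia-like cells 1 of the 4 was higher (background 5.37%) and 0 lower (background 7.83%). The unnamed CTG-333.3 was higher than in Hml-gated cells as well (0.88 ± 0.23, SE, edgeR adjusted p = 0.00669), and CTG-333.51 was higher than in glia-like cells (1.05 ± 0.24, SE, edgeR adjusted p = 0.00303, in 5 of 5 libraries). The epoxide hydrolase gene CTG-1084.16 was the only one of the 7 further annotated genes to pass, at -0.92 against Hml-gated cells (edgeR adjusted p = 0.0292), and lost the call in 7 of 11 alternatives, among them those without female replicate 2, female replicate 3 or male replicate 2.

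Of the 11 members with separated sexes, CTG-333.36 and CTG-1084.9 passed with a higher level in neuron-like than in Hml-gated cells, and CTG-1339.1 with a lower one. Against glia-like cells CTG-333.36, CTG-1523.1 and CTG-1084.7 passed, all higher in neuron-like cells. Not fitted were CTG-333.37, CTG-1523.4 and CTG-1339.19 in either comparison, CTG-494.3 against Hml-gated and CTG-1339.1 against glia-like cells. Over all genes, 4.0% were called higher and 10.2% lower than in Hml-gated cells, and 5.37% higher and 7.83% lower than in glia-like cells. The members fitted were too few for a share to be set beside these. CTG-1084.7 was higher in neuron-like than in glia-like cells by 1.20 ± 0.23 (SE), edgeR adjusted p = 0.000366, in 5 of 5 libraries. CTG-1523.1 was higher by 1.10 ± 0.32 (SE), edgeR adjusted p = 0.0193, but lost the call without female replicate 1 or 2. CTG-333.36 was 0.66 ± 0.17 (SE) higher than in Hml-gated cells, edgeR adjusted p = 0.00772, and 0.68 ± 0.23 (SE) higher than in glia-like cells, edgeR adjusted p = 0.0486. Both calls were lost without female replicate 3, and the second also without either other female library or male replicate 2. CTG-333.35 did not pass in either comparison (log2 0.02 ± 0.20 and -0.43 ± 0.26, SE), unlike its neighbour, but the difference between the 2 genes was not tested.

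**Figure D4:**
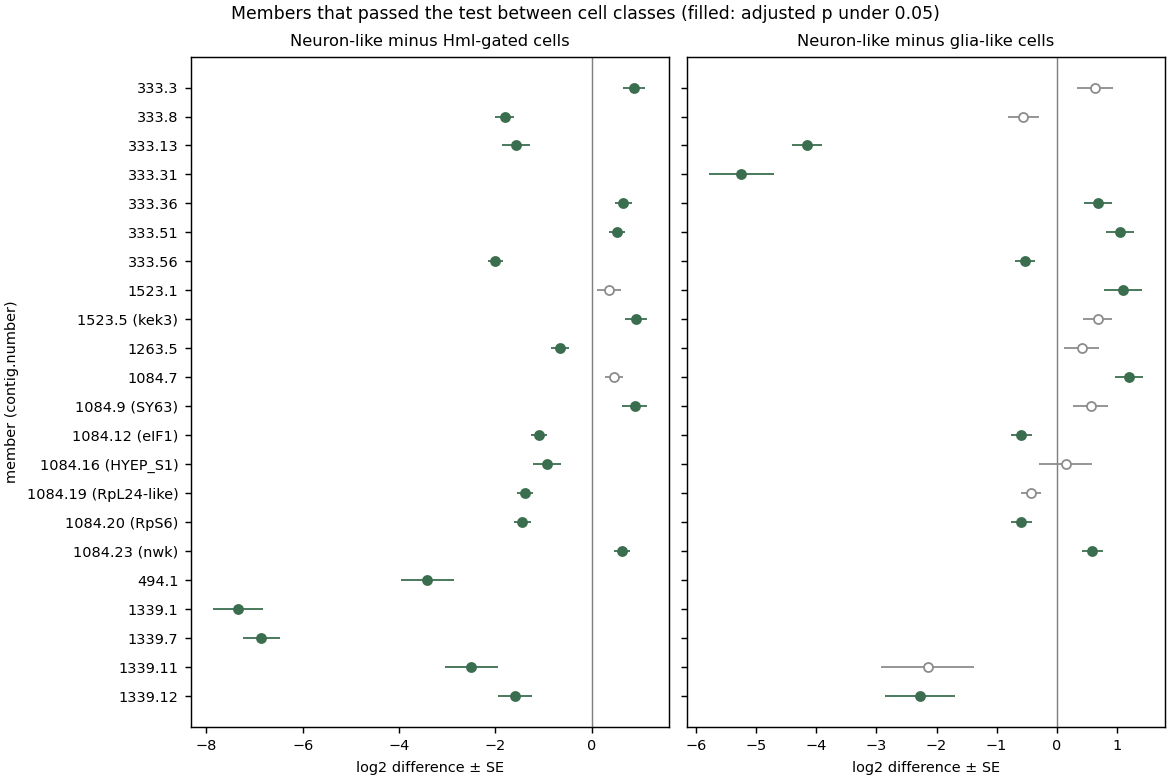
Log2 difference with its standard error between neuron-like cells and Hml-gated cells (left) or glia-like cells (right) for the 22 members called in either comparison, filled where the edgeR adjusted p is under 0.05. CTG-1339.1 and CTG-1339.7 lie farthest to the left against Hml-gated cells, CTG-333.31 and CTG-333.13 against glia-like cells.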

How the data were processed

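Raw UMI counts, not normalized, were deposited as 1 matrix for each of 5 libraries, made by the authors with CellRanger 4.0.0 against gene models of their own. Barcodes with 500 to 60000 UMIs, at least 200 genes, a log10 gene to log10 UMI ratio over 0.7 and under 40% mitochondrial UMIs were kept. Counts were summed per library, and per library and marker gate, and fitted with edgeR 4.0.16 under R 4.3.3, using its quasi-likelihood test after filterByExpr and TMM scaling, with Benjamini-Hochberg adjustment over all genes at 0.05. DESeq2 1.42.0 served as an alternative. Gate markers were left out of the class fits, and each fit was tested on simulated counts. The members, gene lists and tests were chosen with earlier results of these data known. Named were, per contig, up to 5 members called between the sexes, the fitted neighbours of these and of the left-out genes, all members with an annotated name, and per class comparison up to 3 called members in each direction. Other named members were chosen after their values were seen. Levels are CPM by TMM-scaled totals, except that marker levels and the levels of members with separated sexes compared between the sexes within a class, also plotted, are by plain totals. Alternatives covered scaling, tool, low-count filter, cell limits, gates, replicate block and leaving out each library.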

Additional observations from a re-analysis of the deposited data

How the results depend on the processing

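Counts of calls between the sexes were small and moved with most settings. The directions of the 11 members did not reverse, but their selection for separated libraries largely set this in advance. All genes called went from 3 to 5 with median-of-ratios size factors or with all barcodes, to 7 with no filter on low counts, to 34 with DESeq2, to 1 with a mitochondrial share under 20% or with plain library totals, to 0 in Hml-gated or glia-like cells alone (alternatives added after the data were seen, like plain totals), and to 0 to 2 leaving out 1 library (0 without female replicate 2, 1 without female replicate 1 or male replicate 2). Members called went from 2 to 5 with no filter, 7 with DESeq2, 1 with a mitochondrial share under 20% or plain totals, 0 in Hml-gated or glia-like cells alone, and 0 to 2 leaving out 1 library. Where edgeR called 0, the unadjusted p was under 0.05 for 427 of 13830 genes without female replicate 2, 103 of 5051 in Hml-gated cells and 262 of 3414 in glia-like cells. Members past a log2 difference of 1 without overlap, 11 in the main setting, numbered 5 in Hml-gated or glia-like cells alone and 13 to 16 leaving out 1 library. Replicate numbers 1 and 2 are shared by the sexes, with correlations of deviations of 0.013 and 0.135 between same-numbered libraries, too few pairs to show a pairing. With a replicate block 39 genes and 6 members were called, and the medians of contigs 333, 494 and 1339 were -0.11, 2.17 and -0.42. The median of contig 333 was 0.39 and of contig 1084 0.24 in glia-like cells, and that of contig 1523 was 1.80 in Hml-gated cells. Leaving out 1 library, medians ran from -0.11 to 0.15 (333), 0.42 to 0.71 (1523), -0.08 to 0.21 (1263), -0.11 to 0.09 (1084), 2.20 to 2.73 (494) and -0.33 to 0.62 (1339). Between classes, the fit with no replicate block called 864 genes and 10 members against Hml-gated cells, and 801 genes and 3 members against glia-like cells. No filter gave 2270 genes against Hml-gated cells, stricter gates 2104 genes and 17 members against glia-like cells, and plain totals 3940 and 2296 genes. Leaving out 1 library gave 1124 to 1637 genes and 12 to 22 members against Hml-gated cells, and 1037 to 1318 genes and 6 to 11 members against glia-like cells. With stricter gates CTG-1339.12 turned to 0.57 and 0.12, and leaving out 1 library it ran from -2.67 to 1.03 against glia-like cells, where it rests on female replicate 3. Over single called members and alternatives, 262 values stayed past the threshold, 64 did not and 3 reversed.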
